A study of Mus musculus with 12 samples.

Results

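The mitotic kinesins are motor proteins that use ATP to move along, or to shorten, the microtubules of the dividing cell. The 8 genes Kif11, Kif20a, Kif23, Kif22, Kif2c, Kif4, Kif18a and Cenpe were taken as this group, and their probes were found by matching the RefSeq accession of each non-control probe to the gene symbol. All 8 were found, on 13 of the 41174 probes, among 34335 genes and unnamed units measured in all. Kif11, Kif23 and Kif4 had 2 probes each, Cenpe had 3 and the others had 1. The series measured total RNA of 2 organs of 6 male mice on 12 one-colour arrays, with 3 arrays in each of 4 groups. The TG mice were Col1a1tetO-Nanog/+;Rosa26rtTA/+, and the CTR mice were Col1a1+/+;Rosa26rtTA/+. All 6 mice thus carried the rtTA activator at Rosa26, a locus active in most tissues. All of them drank doxycycline at 0.2 mg/ml in 7.5% sucrose for 48 h at about 8 months of age, on a mixed 129Sv/C57BL6 background. The groups were esophagus TG, esophagus CTR, liver TG and liver CTR, and the comparison asks what Nanog, a transcription factor of pluripotent cells, changes in adult tissue.

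Mitotic kinesins are made mostly as cells approach division, and they sort into roles: building a spindle with 2 poles, attaching and aligning chromosomes, and organising the microtubule bundle between the separating chromosomes where the cell then divides. In the esophagus, division takes place mainly in the basal layer of its stratified epithelium, whereas adult hepatocytes rarely divide. Many of these genes carry a CCAAT box, bound by NF-Y, and a cell cycle genes homology region with the core TTTGAA, bound by MuvB complexes. One of these complexes, DREAM, holds late cell cycle genes off in resting cells.

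The RefSeq promoter table (GRCm38.p6) held a window of 300 bases, from 250 before to 50 after the start of the gene, for 7 of the 8 genes, all but Kif20a. Both motifs were searched on both strands, and no match overlapped another. Kif23, Kif4, Kif22 and Kif11 held both motifs, Cenpe held CCAAT only, Kif2c held TTTGAA only and Kif18a held neither. Among all 32851 windows of the table, 17.9% held TTTGAA, 37.4% held CCAAT and 6.95% held both. A match is a run of letters and not a measured binding site. The stretches from 100 bases before to 30 after the start are shown for the 4 genes with both motifs and for Cenpe. Cenpe had the smallest p of the group in the esophagus in the fit of 12 arrays. The stretches run 5′ to 3′ on the strand of the gene, with the matches on either strand in capitals.
Kif23: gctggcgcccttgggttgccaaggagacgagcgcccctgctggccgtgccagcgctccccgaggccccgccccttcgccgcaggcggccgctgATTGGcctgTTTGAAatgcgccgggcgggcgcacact
Kif4: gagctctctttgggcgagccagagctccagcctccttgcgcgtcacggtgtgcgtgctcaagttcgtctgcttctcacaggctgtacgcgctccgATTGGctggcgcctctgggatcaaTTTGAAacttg
Kif22: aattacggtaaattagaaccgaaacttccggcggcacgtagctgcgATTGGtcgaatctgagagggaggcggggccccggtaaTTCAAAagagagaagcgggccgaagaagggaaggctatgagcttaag
Kif11: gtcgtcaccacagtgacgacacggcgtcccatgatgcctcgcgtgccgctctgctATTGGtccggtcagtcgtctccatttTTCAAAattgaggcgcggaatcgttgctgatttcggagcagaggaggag
Cenpe: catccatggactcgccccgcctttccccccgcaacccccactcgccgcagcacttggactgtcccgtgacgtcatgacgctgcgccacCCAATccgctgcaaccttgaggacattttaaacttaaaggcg
These stretches lie at chr9:61946770-61946899 on the minus strand for Kif23, chrX:100625965-100626094 on the plus strand for Kif4, chr7:127042391-127042520 on the minus strand for Kif22, chr19:37376282-37376411 on the plus strand for Kif11 and chr3:135212463-135212592 on the plus strand for Cenpe. In Kif23 the 2 matches lie at the start itself, with the reversed CCAAT at bases -7 to -3 and TTTGAA at bases 3 to 8. In Kif22 and Kif11 the same motifs lie upstream, with the reversed CCAAT at -54 to -50 and at -45 to -41, and the reversed TTTGAA at -17 to -12 and at -19 to -14. In Kif4 the reversed CCAAT lies at -5 to -1 and TTTGAA at 20 to 25, and in Cenpe CCAAT lies at -12 to -8.

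**Figure D1:**
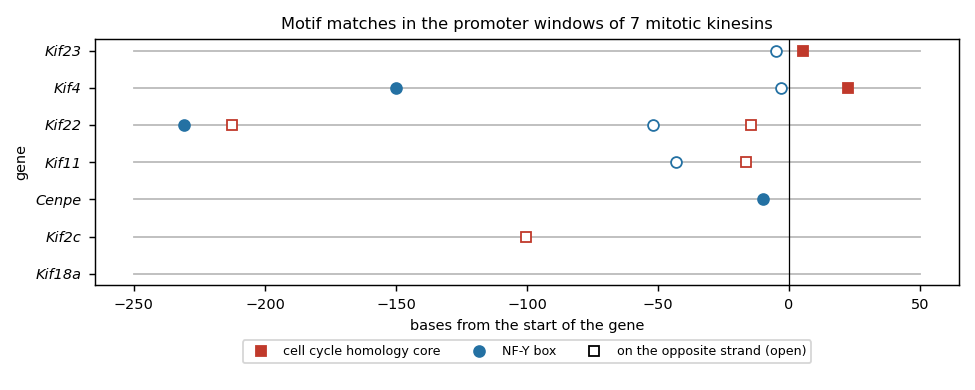
Matches to the cell cycle homology core (red squares) and the NF-Y box (blue circles) in the promoter windows of 7 mitotic kinesins, by distance in bases from the start of the gene; filled symbols are on the strand of the gene and open ones on the opposite strand. Kif23, Kif4, Kif22 and Kif11 hold both kinds, and in each of them 1 match of each kind lies between bases -54 and 25.

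Levels below are log2 probe intensities relative to the 75th percentile of the same array, so that a level of 0 is the 75th percentile; the level of one probe cannot be set against that of another. The scanner software marked 56.3% to 81.8% of the probes of an array as well above background. The keratin Krt4 was at 7.67 to 8.27 on the esophagus arrays and at -5.44 to -1.80 on the liver arrays, and the hepatocyte gene Alb was at 9.75 to 10.2 on the liver arrays. On none of the 12 arrays did the Nanog probe rise well above background (-8.01 ± 0.22 in esophagus TG and -8.17 ± 0.20 in esophagus CTR, SD, n = 3 each). Liver TG3 stood apart from the other livers: the 10th percentile of its probes was -5.31, against -7.36 to -6.13 on the other liver arrays. The clock gene Per2 was at -2.92 in the esophagus and at 0.66 in the liver of the animal of TG1, and at -0.41 in the esophagus and at -1.60 in the liver of the animal of CTR1, so these organs of 1 animal did not match in the clock. Whether samples or labels were exchanged was not tested, and results are also given without these arrays.

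In the esophagus, the mean of TG exceeded that of CTR for all 8 mitotic kinesins, by 0.59 to 1.60 on the log2 scale, against 49.6% of all genes with a higher mean, and none passed the test across all genes. The members called were 0 of 8, and the genes called were 0 of 23205 (0%) at an adjusted p under 0.05 (limma, Benjamini-Hochberg). Without adjustment, 2 of the 8 had a p under 0.05 with a higher mean, against 1.87% of all genes. In 6 of the 8 every TG array was above every CTR array, against 6.32% of all genes. The median difference over the 8 was 1.12, and over all genes tested it was -0.003. In bulk tissue, more cells in division and more RNA per dividing cell cannot be told apart. The part of other tissues in the samples, whose markers are given below, was not tested.

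Kif11 (NM_010615) pushes the spindle poles apart by sliding microtubules of opposite polarity. It was at -3.03, -3.77 and -4.16 in the esophagus of TG1, TG2 and TG3, against -4.90, -4.42 and -5.03 in CTR1, CTR2 and CTR3. All 3 TG arrays were above all 3 CTR arrays, and the difference was 1.13 (SE 0.74, adjusted p = 1). The SEs given per gene pool the spread of all 4 groups, liver included. For Kif11 the SD was 1.92 in liver TG, against 0.58 in esophagus TG and 0.32 in esophagus CTR. With the 6 esophagus arrays alone in the fit its SE was 0.32. The second Kif11 probe was well above background on 1 of the 6 esophagus arrays, CTR1, and so gave no measured difference. The Kif11 difference was 0.08 with the mean over both probes, 0.38 with a common floor for dim values and 0.45 with normexp background correction and quantile normalization.

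Of the kinesins that handle chromosomes, Cenpe (NM_173762), the kinetochore motor that carries chromosomes to the spindle equator, was at 2.19, 1.63 and 0.76 in TG esophagus, against 0.13, -0.08 and 0.06 in CTR esophagus. The lowest TG array lay above the highest CTR array, and the 3 CTR arrays were close together. The difference was 1.49 (SE 0.31, 95% interval 0.81 to 2.17), the smallest p of the 8, with an adjusted p of 0.684. The second Cenpe probe was higher in TG by 1.80 (SE 0.49). The third was nowhere well above background on the CTR arrays, and was at least 2.68-fold higher in TG.

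Kif18a (NM_139303), a motor that slows microtubule growth at the kinetochore and damps the swinging of chromosomes, was at -3.50, -3.23 and -4.02 in TG esophagus and at -4.74, -3.88 and -4.70 in CTR esophagus. The groups overlapped, because TG3 lay below CTR2, and the difference was 0.86 (SE 0.64). Kif2c (NM_134471), which does not walk but takes microtubule ends apart to correct faulty attachments, was at -2.85, -3.53 and -4.06 in TG, against -4.57, -4.83 and -5.19 in CTR. The groups did not overlap, and the difference was 1.38 (SE 0.88).

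Kif22 and Kif4 are chromokinesins, which bind the chromosome arms and push them outward along microtubules. Kif22 (NM_145588) was at 1.68, 1.13 and 0.68 in TG esophagus, against 0.40, 0.71 and 0.11 in CTR esophagus. TG3 lay just below CTR2, so the groups overlapped, and the difference was 0.76 (SE 0.36). Kif4 (NM_008446), which also works with Prc1 in the bundle between the chromosomes, was at -0.60, -1.06 and -1.10 in TG, against -1.57, -1.58 and -1.39 in CTR. The groups did not overlap, and the difference of 0.59 (SE 0.47) was the smallest of the 8. Its second probe differed by 0.84 (SE 0.96).

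Of the kinesins of the central spindle, Kif23 (NM_024245), which forms centralspindlin with Racgap1 and is needed for cytokinesis, was at -0.16, -0.84 and -0.80 in TG esophagus, against -1.24, -1.70 and -2.18 in CTR esophagus. The groups did not overlap, the difference was 1.11 (SE 0.65), and the second probe gave 1.08 (SE 0.37). Kif20a (NM_009004), which brings the chromosomal passenger complex with Aurkb to the central spindle, was at 0.90, 0.41 and -0.17 in TG, against -1.05, -1.22 and -1.39 in CTR. The lowest TG array was above the highest CTR array. The difference of 1.60 (SE 0.35, 95% interval 0.83 to 2.37) was the largest of the 8, with an adjusted p of 0.802.

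**Figure D2:**
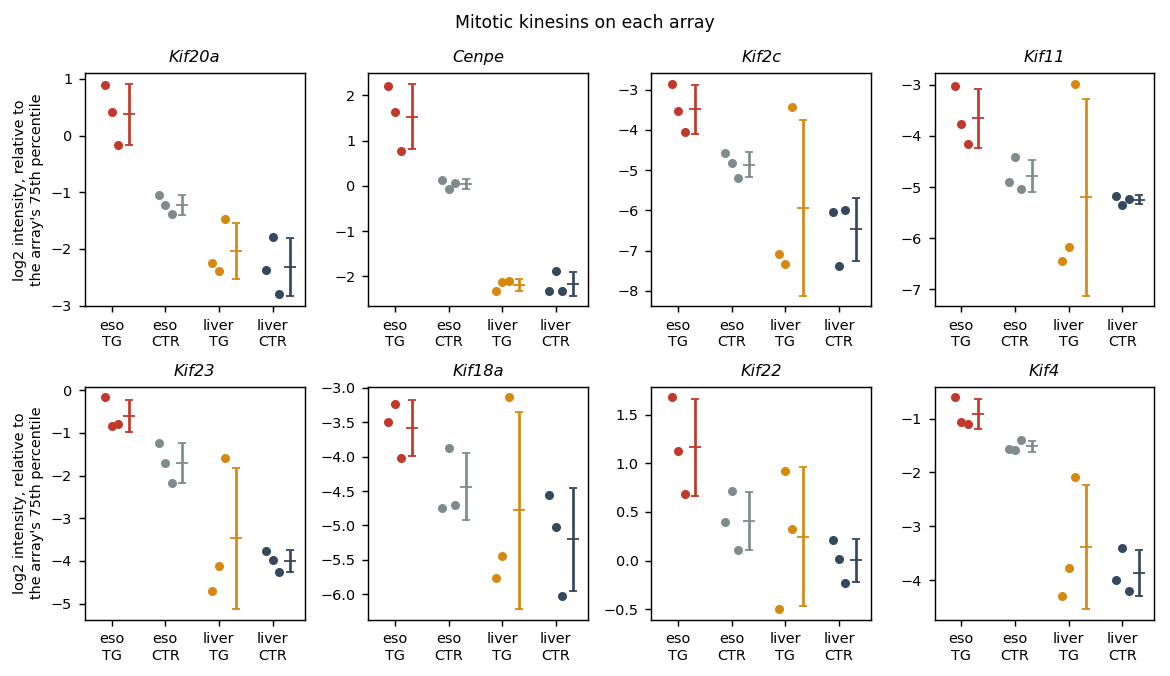
Level of each mitotic kinesin on each of the 12 arrays (points, replicates 1 to 3 from left to right), as log2 intensity relative to the 75th percentile of the array, with the mean and SD of each group (bars, n = 3) beside the points. In the esophagus the TG points of 6 genes lie above all CTR points, and in the liver TG3 is the highest point for 6 genes.

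The 8 genes varied together over the 6 esophagus arrays. TG1 was the highest array for 7 of them, and TG2 for Kif18a. Pearson's r between members ran from 0.66 (Kif18a and Kif23) to 0.99 (Kif2c and Kif20a) over the 28 pairs, with a median of 0.91 (6 arrays, which share the genotype difference). With the group means taken out, r over the same arrays ran from 0.01 to 0.98 with a median of 0.68. The median of the 8 differences from the CTR mean was 1.65 in TG1, 1.11 in TG2 and 0.67 in TG3, against 0.04, 0.02 and -0.25 in CTR1, CTR2 and CTR3.

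The size of the difference varied with the handling of dim signals and of slides. Without TG1 the median over the 8 was 0.85, and without TG1 and CTR1 together it was 0.94. It was 0.62 with normexp background correction and quantile normalization, 0.62 in the authors' deposited table and 0.67 with a common floor for dim values, and all 8 means stayed higher in TG. On the single slide that held esophagus arrays of both genotypes, TG1 was above CTR2 for 8 of 8 genes, with a median of 1.47. A fit that held slide as a fixed block gave a median of 1.76. With the 6 esophagus arrays alone in the fit, all 8 had an unadjusted p under 0.05, with SEs of 0.19 to 0.35, as did 6.45% of all genes in either direction, and the adjusted p-values were 0.69 to 0.752.

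**Figure D3:**
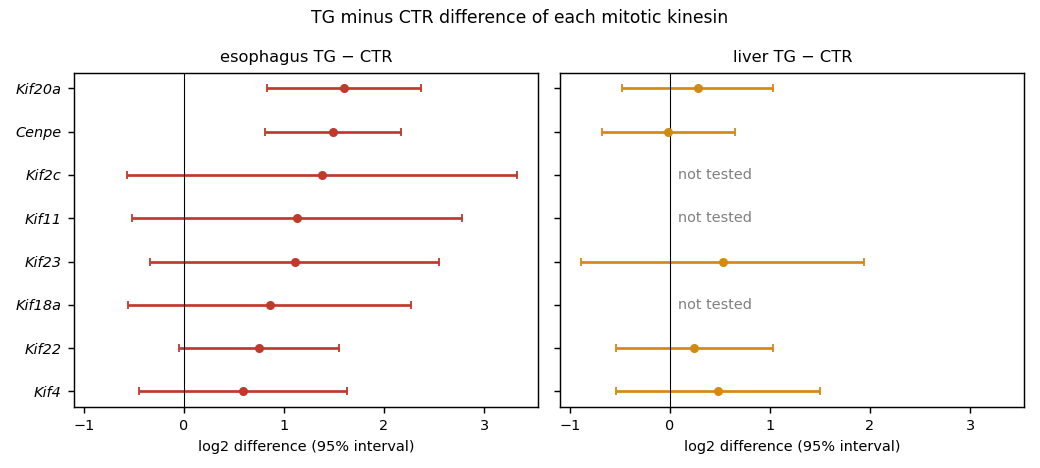
Log2 difference TG minus CTR of each mitotic kinesin in esophagus (left) and liver (right), with 95% intervals from the limma fit of 12 arrays, which pools the spread of both organs. In esophagus all 8 points lie above 0 and the intervals of Kif20a and Cenpe exclude 0 before adjustment; in liver the 5 intervals that could be estimated include 0, and 3 genes were not tested.

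Further mitotic kinesins and the partners of the 8 genes were listed to set beside them. Of 6 other mitotic kinesins, 3 were matched to a probe by accession. Kif18b, a close relative of Kif18a that acts at microtubule ends, was at -3.70, -4.10 and -4.80 in TG esophagus, against -5.64, -4.88 and -5.63 in CTR esophagus, a difference of 1.18 (SE 0.65) with no overlap. Kif15, which can stand in for Kif11 in keeping the spindle poles apart, differed by 0.87 (SE 0.62) with overlap. Kif2a, which shares the depolymerising motor of Kif2c but is also active outside mitosis, differed by -0.001 (SE 0.16). None of the 3 passed the test.

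Of the 29 partners and regulators tested in esophagus, 25 had a higher mean in TG, against 49.6% of all genes, and 0 were called. All TG arrays were above all CTR arrays for 16, against 6.32% of all genes. An unadjusted p under 0.05 with a higher mean was found for 10, against 1.87% of all genes. Both counts include Hmmr, which was nowhere well above background in CTR and was tested through TG alone. The median difference of the 29 was 0.89, or 0.85 with Hmmr at its bound. The 4 with the smallest p were Ccnb1 (1.68, SE 0.31), the cyclin of mitotic entry; Plk1 (1.41, SE 0.33), the kinase that acts from centrosome maturation to cytokinesis; Prc1 (1.00, SE 0.27), the microtubule bundler that Kif4 and Kif23 meet at the midzone; and Birc5 (1.19, SE 0.34), a subunit of the passenger complex. The adjusted p of Ccnb1 was 0.531.

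The lists of regulators, S phase genes and transport kinesins had medians below 0 in the esophagus. Of 18 transcriptional regulators of late cell cycle genes, 7 had a higher mean in TG and the median was -0.07. Their differences ran from -0.74 to 0.69. Without overlap, 2 were higher in TG, against 6.32% of all genes, and 4 were lower. The share of all genes that were lower without overlap was not counted. The lower counts here and for the S phase genes below thus have no background. The highest difference was that of Foxm1, at -1.60, -2.08 and -2.47 in TG against -2.98, -2.59 and -2.65 in CTR. The 4 smallest p were those of E2f1, an activator of S phase genes (-0.74, SE 0.26), Rbl2, a pocket protein of the DREAM complex (-0.37, SE 0.17), Trp53, the p53 gene (-0.33, SE 0.19), and Lin52, a subunit of the MuvB core (-0.29, SE 0.18). Of 15 S phase genes, 0 had a higher mean in TG, the median was -0.54, and 1 did not overlap, with lower values in TG. Of 22 transport kinesins and their adaptors, 5 had a higher mean and the median was -0.19, and the 4 smallest p were those of the ubiquitous cargo motor Kif5b (0.49, SE 0.21), its light chain Klc1 (-0.37, SE 0.18), Kif21b (-0.30, SE 0.22) and the neuronal vesicle motor Kif1a. Kif1a was nowhere well above background in TG, and CTR was at least 1.51-fold higher (adjusted p = 1). None of these genes passed the test.

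Markers of several other tissues had lower mean levels on the TG than on the CTR esophagus arrays. Their part in the kinesin differences was not tested. The mean log2 level over the 8 heart muscle genes was 0.04 to 0.17 on the TG arrays, against 1.30 to 4.08 on the CTR arrays, with 7 of 8 lower in TG. The 4 airway genes were at -3.77 to 1.50 in TG and at 1.76 to 4.95 in CTR. The 6 adipocyte genes were at -1.20 to 1.92 in TG and at 2.30 to 2.96 in CTR. In both lists TG2 lay near CTR, at 1.50 for the airway and 1.92 for the adipocyte genes. TG1 and TG3 were at -3.72 and -3.77 for the airway genes, and at -1.20 and -0.61 for the adipocyte genes. The 5 hepatocyte genes were at -4.11 to -3.73 in TG and at -3.05 to -2.23 in CTR. The 4 erythroid genes were at 1.42 to 1.81 in TG and at 2.05 to 2.73 in CTR. In these 4 lists 0 of the genes tested had a higher mean in TG. Sftpc, a gene of the lung alveoli listed with the airway genes, was not well above background on all 3 arrays of either group and was not tested. It was at -6.61, 6.28 and -0.43 in TG, against 2.20, -6.29 and 0.55 in CTR. The median difference of the 10 clock genes from the CTR mean averaged -0.75 ± 0.51 in TG and 0.04 ± 0.09 in CTR (SD, n = 3 each). By array this median was -1.06, -1.03 and -0.16 in TG1, TG2 and TG3. The clock genes did not move as 1 group: 3 had a higher mean in TG and 7 a lower one. Of the genes of the basal layer, where the dividing keratinocytes lie, 4 of 8 had a higher mean in TG, and their mean level was 4.32 to 4.62 in TG and 4.25 to 4.50 in CTR.

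**Figure D4:**
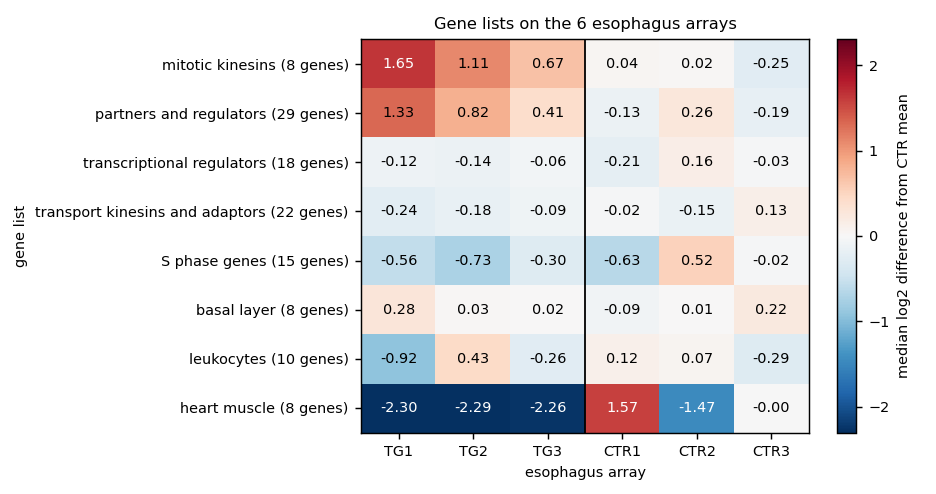
Median log2 difference from the mean of the 3 CTR arrays for 8 gene lists (down the page, with the number of genes tested) on the 6 esophagus arrays (TG left, CTR right of the line). The mitotic kinesins and their partners are above all CTR arrays on the 3 TG arrays and highest in TG1, and the transcriptional regulators, transport kinesins and S phase genes are below 0 on all 3 TG arrays but overlap the CTR arrays.

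In the liver, none of the mitotic kinesins separated TG from CTR. Kif11, Kif18a and Kif2c were not tested, since they were not well above background on all 3 arrays of either group. The members called were 0 of 5, and the genes called were 0 of 21247 (0%); 1770 of the genes (8.33%) had an unadjusted p under 0.05, and 0 of the 5 members did. Of the 5 members 4 had a higher mean in TG, against 66.5% of all genes. The differences were 0.53 (SE 0.64) for Kif23, 0.48 (SE 0.46) for Kif4, 0.28 (SE 0.34) for Kif20a, 0.24 (SE 0.35) for Kif22 and -0.02 (SE 0.30) for Cenpe, with adjusted p-values of 0.739 to 0.99. In 0 of the 5 did the groups not overlap, against 8.42% of all genes for higher values.

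Liver TG3 set the direction of most of these values. Kif23 was at -4.70, -4.13 and -1.59 in liver TG1, TG2 and TG3, against -3.76, -3.98 and -4.26 in liver CTR. Kif4 was at -4.29, -3.78 and -2.09 in TG, against -4.00, -3.40 and -4.21 in CTR. Liver CTR3 was not well above background for either gene. For both genes TG3 lay above every other liver, and the other 2 TG livers lay within or below the range of CTR. Kif11, Kif18a and Kif2c were each well above background on TG3 alone among the TG livers, at -2.98, -3.14 and -3.42, and TG3 was the highest liver for 6 of the 8 genes. The median difference over the 5 was 0.28, against 0.13 over all genes; without liver TG3 it was -0.06, without TG3 and CTR3 together -0.25, without liver TG1 0.62, and without TG1 and CTR1 together 0.72. Slide 2 held liver TG3 and liver CTR2, and there 7 of 8 genes were higher in TG3, with a median of 1.60. The rise on liver TG3 was not particular to the kinesins. Its median probe was at -2.23, against -3.04 to -2.89 on the other livers. Of its probes 81.8% were well above background, against 56.3% to 69.6% on the others. Krt4 was at -1.80 on liver TG3, against -5.44 to -4.04 on the others.

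Cenpe and Kif22 did not follow this array. Cenpe was at -2.33, -2.12 and -2.10 in liver TG and at -2.32, -1.87 and -2.31 in liver CTR, and the 6 values interleaved. Kif22 was highest in liver TG2 at 0.92 and lowest in liver TG1 at -0.50, with CTR values of 0.22, 0.02 and -0.23 in between. Kif20a was at -2.25, -2.39 and -1.47 in TG, against -2.37, -1.78 and -2.80 in CTR, and the groups overlapped.

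In the lists set beside the kinesins, 0 genes were called in the liver. Of 18 partners tested, 11 had a higher mean in TG, the median was 0.05, and the 4 smallest p were those of Nuf2 (0.96, SE 0.41), Kntc1 (1.15, SE 0.54), Psrc1 (1.23, SE 0.60) and Nek7 (0.44, SE 0.28). Nuf2 and Kntc1 are kinetochore proteins. Of the 17 transcriptional regulators the 4 were Cdkn1a (-1.30, SE 0.51), the cell cycle inhibitor, Nfyc (-0.61, SE 0.29), a subunit of NF-Y, Trp53 (-0.37, SE 0.19) and Lin54 (0.33, SE 0.19), the subunit of MuvB that binds DNA. Of the 18 transport kinesins and adaptors the 4 were Klc2 (-0.73, SE 0.35), Kif5a (0.69, SE 0.34), Kif3b (-0.50, SE 0.25) and Kif1c (-0.60, SE 0.32). Kif2a, the only other mitotic kinesin tested in liver, differed by 0.03 (SE 0.16).

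The difference between the organs in the TG minus CTR value was positive for all 5 genes tested in both organs, against 35.4% of all genes, and called for 0, with 0 of 24436 genes called (0%). It was 1.50 (SE 0.43) for Cenpe and 1.32 (SE 0.49) for Kif20a, which both had an unadjusted p under 0.05, as did 1.39% of all genes when positive differences are counted, and both had an adjusted p of 0.943. For the other 3 of these it ran from 0.11 for Kif4 to 0.58 for Kif23. The median over the 5 was 0.58 and that over all genes -0.15. For Kif11, Kif18a and Kif2c the liver values subtracted are near background. With them the median over the 8 was 0.71, and it was 1.53 without liver TG3, 0.21 without liver TG1 and 0.05 without liver TG1 and CTR1 together. Without liver TG1 the values of Kif4 (-0.34), Kif18a (-0.06) and Kif23 (-0.04) were negative. Among the partners the 4 smallest p were those of Ccnb1 (1.52, SE 0.44), Aurka (1.05, SE 0.33), the kinase of the spindle poles, Prc1 (1.12, SE 0.38) and Birc5 (1.39, SE 0.48). Among the regulators they were those of Cdkn1a (1.60, SE 0.74), Lin52 (-0.49, SE 0.25), Nfyc (0.74, SE 0.42) and E2f3 (-0.48, SE 0.30), and among the transport kinesins those of Klc1 (-0.68, SE 0.25), Kif5a (-1.11, SE 0.49), Kif1a, which was near background in TG esophagus, and Kif21b (-0.48, SE 0.31). None of these passed the test.

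In CTR mice the means of the mitotic kinesins were higher in the esophagus than in the liver, where some of them were near background. The means were higher for 8 of 8 genes, against 46.2% of all 23364 genes, and 4 passed the test. Of all genes 62.4% were called, 27.8% as higher and 34.6% as lower. In 6 of the 8 every CTR esophagus was above every CTR liver, against 31.1% of all genes. These 6 include Kif2c and Kif11, which were well above background on 0 and 1 of the 3 CTR livers. They also include Kif4 and Kif23, which were well above background on 2 of the 3. All of these entered the comparison through CTR esophagus alone, where they were higher. With only probes well above background on all arrays of both groups, 3 members were tested (Cenpe, Kif20a and Kif22). Of these, 2 were called (Cenpe and Kif20a), and Kif4 and Kif23 were not tested. The 4 that passed in the main fit were Kif4 (2.36, SE 0.47, adjusted p = 0.0013), Kif23 (2.29, SE 0.65, adjusted p = 0.0106), Cenpe (2.21, SE 0.31, adjusted p = 0.000106) and Kif20a (1.09, SE 0.35, adjusted p = 0.0183). Kif4 was at -1.57, -1.58 and -1.39 in CTR esophagus, against -4.00, -3.40 and -4.21 in CTR liver, and Cenpe was at 0.13, -0.08 and 0.06, against -2.32, -1.87 and -2.31. Neither gene overlapped between the organs. The difference did not pass for Kif2c (1.61, SE 0.88), Kif18a (0.76, SE 0.64), Kif11 (0.47, SE 0.74) and Kif22 (0.40, SE 0.36); Kif2c was nowhere well above background in CTR liver and was at least 1.09-fold higher in CTR esophagus. Organ and RNA extraction method differed together and cannot be told apart. The call of Kif20a was lost with normexp and quantile normalization (adjusted p = 0.0517), without esophagus CTR1 (adjusted p = 0.0566), without liver CTR3 (adjusted p = 0.0722), without esophagus TG1 and CTR1 together (adjusted p = 0.0508) and without liver TG1 and CTR1 together (adjusted p = 0.0542), and that of Kif23 without esophagus TG1 and CTR1 together (adjusted p = 0.0512). With the mean over all probes of a gene Cenpe (adjusted p = 0.0798) and Kif4 (adjusted p = 0.0556) were not called. Kif2c was called without liver TG3 (adjusted p = 0.00615), without liver TG3 and CTR3 together (adjusted p = 0.00601), with quantile normalization (adjusted p = 0.0152) and with only the arrays of the 2 groups (adjusted p = 0.0133).

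Of 27 partners tested, 18 were called higher and 2 lower in CTR esophagus than in CTR liver, with a median difference of 1.36. Of the 27, 6 were nowhere well above background in CTR liver, and with these at their bound the median was 1.16. The 4 smallest p were those of Nek6 (-3.34, SE 0.23), a kinase that acts on Kif11, Prc1 (2.42, SE 0.27), and Cdca8 (1.93, SE 0.24) and Incenp (1.50, SE 0.19), both of the passenger complex. Of the other mitotic kinesins, Kif2a was called higher (0.62, SE 0.16). Kif15 and Kif18b were nowhere well above background in CTR liver. Kif15 was called, at least 1.54-fold higher (adjusted p = 0.00691), and Kif18b was not called and gave no bound above 1. Of 18 regulators 3 were called higher and 2 lower, and the 4 smallest p were those of Nfyb (-1.91, SE 0.19), Cdkn1a (4.06, SE 0.52), Rbl1 (1.64, SE 0.32) and Lin54 (-0.58, SE 0.19). Of 22 transport kinesins and adaptors 13 were called higher and 3 lower, and the 4 smallest p were those of Kif3c (3.27, SE 0.15), Klc3 (6.63, SE 0.32), Klc1 (2.70, SE 0.18) and Kif5a (4.04, SE 0.34).

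Of the 5 genes tested in both organs, 4 had means in the order esophagus TG, esophagus CTR, liver TG and liver CTR, from the highest to the lowest; in Cenpe the liver groups were the other way round. Kif11, Kif18a and Kif2c were highest in esophagus TG and next in esophagus CTR, and their liver groups, near background, have no order. No difference between esophagus TG and CTR passed the test for the 8 genes, and none between the liver groups for the 5 tested. In the steps of this order, Kif4 averaged -0.92 ± 0.28 in esophagus TG, -1.51 ± 0.11 in esophagus CTR, -3.38 ± 1.15 in liver TG and -3.87 ± 0.42 in liver CTR (SD, n = 3 each), so the 2 liver groups lay within their spread. Kif22 averaged 1.16 ± 0.50, 0.41 ± 0.30, 0.25 ± 0.71 and 0.003 ± 0.22 in the same 4 groups (SD, n = 3 each), and the 3 lower ones lay within their spread.

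Outside the 8 genes, the mean profile of the 8 over the 6 esophagus arrays was most like that of Lpar6, a receptor for lysophosphatidic acid, with Pearson's r of 0.996, followed by 3 probes without a gene name here and by Ccnb2, a mitotic cyclin, at 0.993. Of 23186 genes, 376 had r above 0.9 over these arrays, which share the genotype difference. Without the 2 arrays farthest from the median of the profile, TG1 and TG2, r was 0.997 for Lpar6 and 0.975 for Ccnb2. Over the 12 arrays with the 4 group means taken out, the named genes most like the profile were Ndc80, a kinetochore protein that binds microtubules, at 0.965, Ptpn7, a phosphatase of blood cells, at 0.958 and Rcor2, a corepressor, at 0.958. Of 24362 genes, 135 had r above 0.9; without liver TG3 and liver TG1, the 2 arrays farthest from the median of the profile, r was 0.859 for Ndc80, 0.881 for Ptpn7 and 0.876 for Rcor2.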

How the data were processed

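Total RNA was measured on Agilent 4x44K mouse arrays. Per the file headers, Feature Extraction 10.7.1.1 made the deposited spot intensity values, with the background subtracted within each array. A value table that the authors deposited holds log2 values and served as an alternative; the sources used here do not give its background treatment, and limma is named per the submitters' processing notes. Control spots and 1311 outlier spots were left out, and 23374 probes were named through RefSeq accessions (GRCm38.p6), giving 16535 genes and 17800 unnamed units.

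Values are log2 of the processed signal minus the array's 75th percentile, with the brightest probe standing for a gene. A gene entered a contrast if 1 of the groups had its probe well above background on all 3 arrays. The fit held 12 arrays in 4 groups without a block (limma 3.58.1 with lmFit and eBayes, R 4.3.3), and p-values were two-sided and adjusted by Benjamini-Hochberg (0.05) over all genes tested. At least N-fold is the mean of the brighter group over the dimmer group's bound, which is per array the higher of the lowest well-above-background signal and the probe's own signal. No gMeanSignal column was in the files, so normexp (offset 50) was run on the median signals. The precision is limited by the 3 arrays of a group. The mice of a genotype are biological replicates per the series design.

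Same-numbered TG and CTR arrays correlated in their deviations at -0.16 to 0.061 in esophagus and at -0.32 to -0.022 in liver, so the numbers do not pair the animals. Deviations of esophagus and liver arrays of different animals on one slide correlated at a median of 0.13 over 6 pairs, against -0.021 over 24 pairs that shared neither slide nor animal. Slides were numbered from 1 to 5 in scan order.

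The members and lists were chosen with earlier results of these data known. The 8 members, Nanog, Col1a1 and the other mitotic kinesins were named by rule, the 4 smallest p were named for partners, regulators and transport kinesins in each contrast, and S phase genes were counted. Foxm1 was named as the highest of the regulators in esophagus. Krt4, Alb and Per2 were named as checks from the marker lists. Col1a1, whose locus holds the transgene, was at 4.72 ± 0.20 in esophagus TG and at 4.82 ± 0.27 in esophagus CTR (SD, n = 3 each). Kif14, Kif20b and Kifc1 had no probe matched by accession. Promoter windows were searched, and the fit tested on simulated data, with scripts in R and Python 3.11.15 with data.table (1.17.8), jsonlite (2.0.0), pandas (2.3.3) and matplotlib (3.10.9).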

Additional observations from a re-analysis of the deposited data

How the results depend on the processing

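In the TG minus CTR comparisons and their difference between organs the members called stayed at 0 under the 13 or 14 alternatives of each comparison and the 12 runs that each left out 1 array. The count of genes called in esophagus, 0 in the fit as reported, was 2 with normexp and quantile normalization, 1 with quantile normalization, 2 in the authors' table, 2 with the common floor, 1 with slide as a fixed block, 1 with the 6 arrays of the organ alone, 3 without esophagus TG1 and CTR1 together, and 0 to 7 when 1 array was left out. For the difference between organs it was 1 with normexp, 1 with quantile normalization, 1 in the authors' table, 1 with the common floor, 1 without esophagus TG1 and CTR1, 2 without liver TG3 and CTR3, and 0 to 3 when 1 array was left out; in liver it was 113 without liver TG1 and CTR1. None of these genes was one of the 8, and the cause was not tested. The median over the members in esophagus was 0.62 (normexp), 0.62 (authors' table), 0.67 (common floor) and 1.76 (slide as a fixed block), and 0.85 to 1.30 with 1 array left out. In liver it was -0.25 without TG3 and CTR3, and -0.057 to 0.62 with 1 array left out. For the difference it was 1.66 without liver TG3 and CTR3, and 0.21 to 1.53 with 1 array left out. For CTR esophagus minus CTR liver it was 0.58 (normexp), 0.59 (authors' table), 0.75 (common floor), 1.09 with probes above background on all arrays of both groups and 1.06 with the mean of the probes of a gene, and the members called there were 2 with that filter, 2 with the mean of probes, 2 without esophagus TG1 and CTR1, and 3 to 5 with 1 array left out.

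Signs turned in liver for Kif20a (-0.018 with normexp, -0.017 in the authors' table, -0.25 without TG3 and CTR3), Cenpe (0.23 with the mean of probes, 0.079 with slide as a fixed block), Kif23 (-0.54) and Kif4 (-0.33), the last 2 without TG3 and CTR3. For the difference between organs they turned for Kif11 (-0.61 with the mean of probes) and Kif4 (-0.079 without esophagus TG1 and CTR1), and without liver TG1 and CTR1 for Kif18a (-0.38), Kif23 (-0.15) and Kif4 (-0.28). With 1 array left out, liver values ran from -0.091 to 0.13 for Cenpe, -0.0070 to 0.54 for Kif20a, -0.090 to 0.62 for Kif22, -0.41 to 1.14 for Kif23 and -0.16 to 0.93 for Kif4, and the difference between organs from -0.056 to 1.26 for Kif18a, -0.036 to 1.52 for Kif23 and -0.34 to 0.76 for Kif4. With the replicate block the esophagus median was 1.12 with 0 members called, and the block changed no call of a member. The 3 settings that leave out a pair of arrays were chosen after seeing the data. Probes near background limit Kif11, Kif18a and Kif2c in liver.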
